A study of Arabidopsis thaliana with 12 samples.

Results

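In Arabidopsis thaliana the AT-hook protein SOB3, encoded by AT1G76500 and named after a phytochrome B suppressor screen, acts in the nucleus to repress hypocotyl growth. The genes described here are the nuclear genes for the light-harvesting, photosystem and Rubisco small-subunit proteins, and the question was whether the SOB3-GFP fusion was found at them at each of 3 times of day. The set held 39 of the 27444 protein-coding genes of the nuclear chromosomes. It was listed by gene family and locus, but with earlier results of these data known. It comprised 15 LHCB genes (AT1G29920, AT1G29910, AT1G29930, AT2G34430, AT2G34420, AT2G05100, AT2G05070, AT3G27690, AT5G54270, AT5G01530, AT3G08940, AT2G40100, AT4G10340, AT1G15820 and AT1G76570) and 6 LHCA genes (AT3G54890, AT3G61470, AT1G61520, AT3G47470, AT1G45474 and AT1G19150). It further comprised 5 PSB genes (AT5G66570, AT1G06680, AT4G05180, AT1G79040 and AT1G44575), 9 PSA genes (AT4G02770, AT4G28750, AT1G31330, AT1G55670, AT1G52230, AT1G30380, AT4G12800, AT5G64040 and AT1G08380) and 4 RBCS genes (AT1G67090, AT5G38430, AT5G38420 and AT5G38410). All samples came from Columbia (Col-0) seedlings of the sob3-4 mutant that expressed SOB3-GFP from the SOB3 promoter (ProSOB3::SOB3-GFP), grown at 22 °C with 8 h of light and 16 h of darkness per day. Whole seedlings were harvested at ZT4 (4 h after lights on) and ZT9 (9 h) at an age of 5 days, and at ZT24 (24 h, dawn) at an age of 6 days, and the chromatin was precipitated with an antibody to GFP. Each time point had 3 ChIP replicates, each with its own peak list, and 1 input, so 9 lists were compared. The labels do not say whether replicates came from separate sowings, and no ChIP from plants without GFP was analysed here.

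Photosynthesis genes of the nucleus encode proteins that are made in the cytosol and imported into chloroplasts. LHCB proteins form the antenna of photosystem II and LHCA proteins that of photosystem I, and they hold the chlorophylls that pass light energy to the reaction centres. PSB and PSA genes encode nuclear subunits of photosystems II and I, and RBCS genes encode the small subunit of Rubisco, the enzyme that fixes CO2. These genes are classic light-induced genes, and their promoters are known for the G-box (CACGTG) and the I-box core (GATAAG), which many light-responsive plant promoters carry. AT-hook proteins bind the minor groove of AT-rich DNA.

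The 9 lists held between 20988 and 24827 nuclear peaks. The lowest background solved from a list, the measure of depth the lists allow, ranged from 12.1 to 15.8 fragments per base. Fold enrichment sets the ChIP reads piled up at a peak's summit against a local background, and the peaks were called against input. Its median per list ranged from 2.55 to 2.90. A gene window was the gene body with 2000 bp before it and 1000 bp after it, and a peak counted when it overlapped that window by at least 1 bp. Peaks of different lists were set side by side by percentile: 100 stands for the highest fold enrichment among the nuclear peaks of that list. Reads that map uniquely could be placed over nearly the whole of these windows, since the share of unique 86-base words was 89.0% in the lowest member window, with a median of 100%.

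The DNA at some of the peaks is shown here because the results below turn on it, in the TAIR10 genome, read 5′ to 3′ on the strand of the named gene. Capitals mark any match, on either strand, to 4 groups of words: PIF-like (the word CACACG, then CACATG, then CACGCG and lastly CACGTG), TCP-like (the word GGACCA, then GGCCCA and lastly GGTCCA), AT-rich (AAATAAAA, AAATAATA, ATATAAAA and ATATAATA) and GATAAG. Only DNA outside annotated exons is printed. LHCA4, LHCB6 and RBCS2B show the G-box beside the summit of a site at the gene's own start. PSBO1 shows part of the top-ranked start site of the set, and the printed stretch held no match. The RBCS1A and PSAE-1 stretches are sites whose rank differed between time points.
LHCA4 promoter, chr3:17495064-17495263, minus strand: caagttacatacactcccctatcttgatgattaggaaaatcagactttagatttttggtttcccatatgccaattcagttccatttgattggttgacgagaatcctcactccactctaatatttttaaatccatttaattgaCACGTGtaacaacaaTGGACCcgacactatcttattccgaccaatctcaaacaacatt
LHCB6 promoter, chr1:5447881-5448045, minus strand: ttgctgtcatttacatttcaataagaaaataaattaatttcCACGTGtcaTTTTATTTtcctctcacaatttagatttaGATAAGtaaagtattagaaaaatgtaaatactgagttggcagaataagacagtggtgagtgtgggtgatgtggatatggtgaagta
RBCS2B promoter, chr5:15382152-15382351, minus strand: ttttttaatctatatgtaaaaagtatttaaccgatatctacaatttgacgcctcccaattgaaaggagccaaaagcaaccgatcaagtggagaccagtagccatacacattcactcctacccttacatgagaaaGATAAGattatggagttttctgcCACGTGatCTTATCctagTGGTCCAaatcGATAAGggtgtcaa
PSBO1 promoter, chr5:26568471-26568571, plus strand: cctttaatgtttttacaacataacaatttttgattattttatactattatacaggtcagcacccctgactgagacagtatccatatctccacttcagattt
RBCS1A upstream site, chr1:25051362-25051561, minus strand: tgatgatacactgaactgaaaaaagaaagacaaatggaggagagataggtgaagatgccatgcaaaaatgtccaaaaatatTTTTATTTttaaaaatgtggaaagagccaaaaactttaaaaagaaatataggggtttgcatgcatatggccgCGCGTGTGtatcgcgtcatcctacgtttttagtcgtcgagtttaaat
PSAE-1 upstream site, chr4:14205065-14205264, minus strand: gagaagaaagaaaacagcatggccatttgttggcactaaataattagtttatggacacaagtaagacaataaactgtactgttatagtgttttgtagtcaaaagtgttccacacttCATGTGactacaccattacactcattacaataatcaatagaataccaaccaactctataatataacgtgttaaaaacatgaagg

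SOB3-GFP peaks were found at every member of the set. All 39 genes had a peak in their window in at least 1 list, against 79.7% of all protein-coding genes. In all 9 lists together a peak was present at 34 of the 39 members (87.2%), against 52.4% of all genes. With a gene called bound when at least 2 of the 3 replicates had a peak, 39 members were bound at ZT4 (all genes 68.1%), 37 at ZT9 (all genes 66.3%) and 37 at ZT24 (all genes 68.3%). At all 3 time points 36 members were bound, against 61.3% of all genes. The median gene length was 1466 bp for members and 2078 bp for all genes. A window held 2.10 peaks per list at members and 1.29 at all genes.

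**Figure D1:**
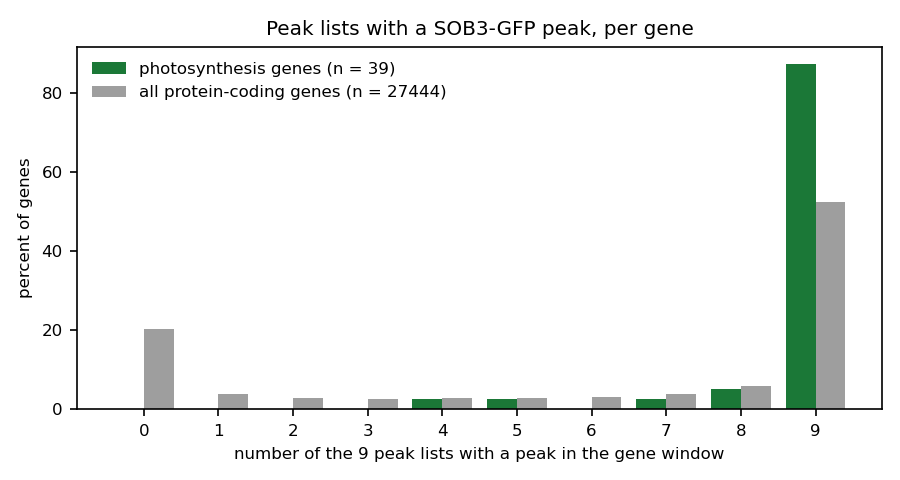
Percent of genes (y axis) by the number of the 9 peak lists with a peak in the gene window (x axis), for the 39 photosynthesis genes (green) and all 27444 protein-coding genes (grey). The members stand almost entirely at 9 lists (34 of 39), with none at 0 to 3 lists.

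Peaks at the members' own starts were frequent, though not every best peak lay there. A promoter window of the same length for every gene (1000 bp before to 100 bp after the transcription start site, TSS) held a peak in all 9 lists at 31 of 39 members, against 36.3% of all genes, and every member had one in at least 1 list, while 33.7% of all genes had none in any. By the rule of the nearest TSS, 30 of 39 members were assigned a peak in all 9 lists, against 35.6% of all genes. Overlapping peaks of the 9 lists were merged into sites, and a site present in all 9 lists had its summit within 250 bp of the TSS at 28 of 39 members (71.8%), against 23.2% of all genes. These 28 were 11 of 15 LHCB, 5 of 6 LHCA, 3 of 5 PSB, 6 of 9 PSA and 3 of 4 RBCS genes, so that every family was represented.

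The summit of the best peak, the one of highest fold enrichment in the window, was taken for each gene and list. It fell in the 250 bp just before the TSS in 37.0% of the 338 cases at members and in 23.7% of the cases at all genes. In the 250 bp from the TSS onwards it fell in 18.6% of cases at members and in 10.6% at all genes. The TSS nearest to the best peak was the gene's own in 66.9% of cases at members and in 57.6% at all genes.

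**Figure D2:**
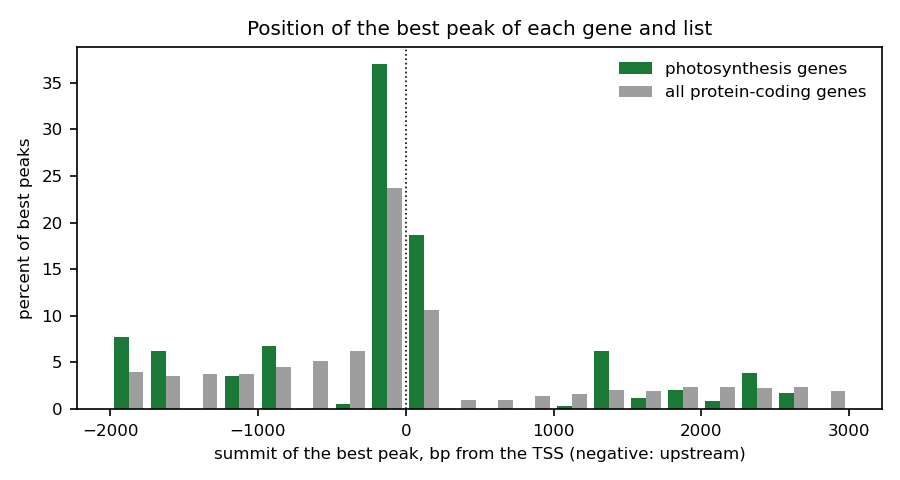
Position of the best peak's summit relative to the TSS (x axis, bp, bins of 250 bp, negative upstream) as percent of best peaks (y axis), for photosynthesis genes (green) and all protein-coding genes (grey). The 250 bp before the TSS held 37.0% of best peaks at photosynthesis genes and 23.7% at all genes.

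Few summits lay in coding sequence. Of the 51 member sites present in all 9 lists, 31 had their summit between genes, 19 in an exon outside the coding sequence, 1 in an intron and 0 in a coding exon. Over all 13251 such sites the share in coding exons was 1.15%. The GC content of 300 bp at the summits had a median of 32.7% at member sites and 32.3% at all sites.

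The peaks at members were frequent but of middling height. The median percentile of the best peak over genes and lists was 65.7 at members and 64.3 at all genes with a peak, and the median per list ranged from 59.3 to 73.0 at members and from 63.1 to 65.3 at all genes. Among genes with a peak in all 9 lists, the median of the mean percentile was 61.7 for the 34 members and 71.1 for 14388 genes. The gap was wider in the promoter window, where the median was 52.7 for the 31 members and 66.6 for 9967 genes with a promoter peak in all 9 lists, and the median of the mean fold enrichment was 2.95 for members and 3.41 for those genes. A mean promoter percentile of at least 90 was reached by 1 of the 31 members and by 14.1% of those genes. For sites within 250 bp of the TSS the medians were 52.1 at members and 63.0 at all genes. Peaks of member starts were thus present in nearly every list while ranking lower than those at the starts of genes at large that also had one.

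**Figure D3:**
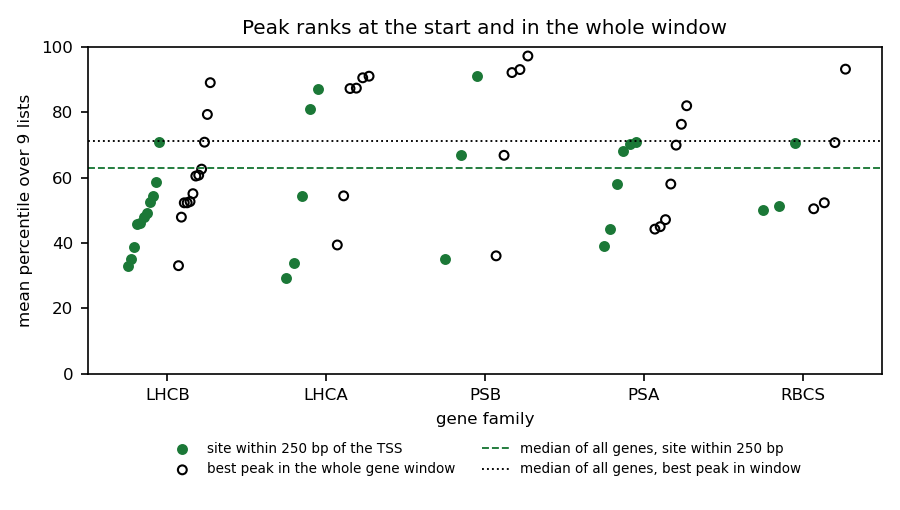
Mean percentile over the 9 lists (y axis) for each photosynthesis gene by family (x axis), for the highest site within 250 bp of the TSS (filled green) and for the best peak in the whole window of genes with a peak in all 9 lists (open). Dashed and dotted lines give the medians over all genes, 63.0 and 71.1. Most start sites of LHCB genes lie below the dashed line, and the highest open points belong to PSB, LHCA and RBCS genes.

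Among the families, PSB and LHCA genes had the highest best peaks, with median mean percentiles of 92.2 and 87.4, followed by RBCS at 61.5, LHCB at 53.2 and PSA at 47.2. At the starts the order was another one: the sites within 250 bp of the TSS had medians of 66.9 at PSB, 63.2 at PSA, 54.5 at LHCA, 51.5 at RBCS and 47.9 at LHCB genes. These families are small and their ranges overlapped widely. LHCB1, LHCB2 and LHCB3 proteins form the trimeric major antenna of photosystem II, while LHCB4, LHCB5 and LHCB6 are its monomeric minor antenna. The LHCB1 genes CAB1 and CAB2 (LHCB1.3 and LHCB1.1) lie head to head and share both of their sites of all 9 lists, one close to each start. The site at CAB2 had percentiles of 41.1 ± 20.3 (ZT4), 35.5 ± 32.0 (ZT9) and 70.7 ± 15.1 (ZT24), and that at CAB1 44.5 ± 16.4, 53.2 ± 14.1 and 66.0 ± 3.6 (SD, n = 3 each). The divergent LHB1B1 and LHB1B2 (LHCB1.4 and LHCB1.5) likewise shared 2 sites. Values of such pairs are therefore not independent.

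LHCB6 had the highest site at its start of the LHCB genes, with percentiles of 67.7 ± 11.3 (ZT4), 73.0 ± 8.7 (ZT9) and 72.0 ± 3.4 (ZT24) (SD, n = 3 each). Its summit lay 66 bp before the TSS, inside the stretch printed above with a G-box and an I-box. LHCB4.3 had the highest best peak of the family. In the ZT4 lists its best peak ranked at 88.6, 61.7 and 83.8, in the ZT9 lists at 90.6, 94.9 and 97.7, and in the ZT24 lists at 94.1, 95.4 and 95.2. The site (chr2:16743505-16745074) lay far upstream, with its summit 1745 bp before the TSS and nearest to the start of AT2G40095, and its ZT4 lists were all below those of ZT9 and ZT24, a difference that did not pass the test over all sites (adjusted p = 0.0645, limma). The start sites of LHCB2.2, a major-antenna gene, and of LHCB4.2 and LHCB5 averaged 52.7, 33.1 and 35.3 over the 9 lists. The site at the start of LHCB4.3 ranked at 53.5 ± 8.7 (ZT4), 67.7 ± 7.9 (ZT9) and 54.5 ± 7.0 (ZT24).

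A peak in fewer than 9 lists was seen at 5 members, and 3 of them were LHCB genes. CAB3 (LHCB1.2) had a peak in 4 lists, with percentiles of 37.6, 27.5 and 0.7 at ZT4, in no ZT9 list, and 23.8 in 1 ZT24 list. LHCB2.1 had a peak in 7 lists, at 59.1, 58.2 and 53.5 at ZT4, 36.8 in 1 ZT9 list, and 51.6, 24.7 and 63.6 at ZT24. LHCB2.3 had a peak in 8 lists, at 84.1, 71.2 and 65.5 at ZT4, 36.9 and 36.0 in 2 ZT9 lists, and 48.0, 42.6 and 41.1 at ZT24. Each of these 3 major-antenna genes thus had its missing lists wholly or mostly at ZT9. The other members with missing lists did not share this: PSAH2 lacked a peak at ZT4 only, and PSAD-1 lacked peaks at all 3 time points. Of all genes, 68.1% were bound at ZT4, 66.3% at ZT9 and 68.3% at ZT24, by a peak in at least 2 of 3 replicates. LHCB4.1 had no promoter peak in any ZT4 list but one in every ZT9 and ZT24 list, at 49.9 ± 5.7 and 20.4 ± 15.8. A list without a peak says that no peak passed the authors' threshold there, and these gains and losses were not tested.

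LHCA genes had a peak in all 9 lists without exception, and 4 of the 6 had a mean percentile above 87. LHCA4, whose protein forms part of the photosystem I antenna, carried its highest peak right at its start. The site (chr3:17494685-17495588) had its summit 131 bp before the TSS, over the G-box stretch printed above, and ranked at 86.6 ± 6.7 (ZT4), 84.1 ± 6.8 (ZT9) and 91.1 ± 0.8 (ZT24) (SD, n = 3 each). Lhca6, a minor antenna protein, had the highest mean percentile of its family. In the ZT4 lists it ranked at 88.1, 87.1 and 90.8, in the ZT9 lists at 94.6, 89.99 and 92.8, and in the ZT24 lists at 88.4, 93.7 and 94.2. Its leading site lay at the far end of the gene, 1286 bp after the TSS, and a further site 53 bp before the TSS, and 32 bp from the start of its neighbour AT1G19140, had a mean percentile of 81.0.

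The high rank of LHCA1 came from DNA nearer to another gene. Its leading site lay 2498 bp after its TSS and nearest to the start of AT3G54880, with percentiles of 90.4 ± 6.7, 81.4 ± 2.9 and 90.4 ± 2.3 at ZT4, ZT9 and ZT24, while the site at the start of LHCA1 averaged 29.5 over the 9 lists. LHCA2 had its leading site over the DNA before its own start (chr3:22742131-22745913), with a median summit 944 bp before the TSS and percentiles of 86.5 ± 1.8 (ZT4), 92.1 ± 2.3 (ZT9) and 93.1 ± 3.3 (ZT24) (SD, n = 3 each). The promoter window alone gave LHCA2 a mean percentile of 89.5 over the 9 lists. LHCA3 had a low site at its start, averaging 34.0, and Lhca5 one averaging 54.5.

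PSB genes differed widely in rank. PSBO1 encodes the manganese-stabilizing protein of the oxygen-evolving complex. Its start site (chr5:26568157-26568810, summit 78 bp before the TSS) was the highest of all member starts, with percentiles of 92.0 ± 0.6 (ZT4), 88.8 ± 2.6 (ZT9) and 92.9 ± 2.0 (ZT24) (SD, n = 3 each), and the stretch printed above held none of the 4 groups of words. PSBP-1, a further extrinsic subunit of that complex, had a start site averaging 35.1, and PSBR, a small subunit of photosystem II, one averaging 66.9.

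PSBQ-2, which encodes an extrinsic subunit of the oxygen-evolving complex, had the highest best peak of all 39 members, at a mean percentile of 97.2. Its percentiles were 99.4, 98.9 and 98.8 in the ZT4 lists, 98.5, 92.6 and 94.5 in the ZT9 lists, and 97.5, 98.8 and 96.2 in the ZT24 lists, with folds between 4.92 and 9.43. This peak (chr4:2674723-2675208) lay 1743 bp before the TSS and nearer to the start of ATK5, and the promoter window of PSBQ-2 itself had a peak in 7 lists, averaging 25.9.

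NPQ4 encodes PSBS, the photosystem II protein needed for the rapid quenching of excess light energy. Its leading site (chr1:16871079-16871908) ranked at 95.7 ± 1.5 (ZT4), 89.9 ± 3.3 (ZT9) and 90.9 ± 5.4 (ZT24) (SD, n = 3 each). By the outermost TSS of the gene the summit lay 1348 bp inside it, but the annotation holds further transcripts that start at positions 16871511 and 16871696, and the summit at 16871569 lay between these. At the outermost TSS a site with its summit 411 bp upstream averaged 44.6.

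PSA genes held the lowest members. PSAD-1, which encodes the stromal docking subunit for ferredoxin, had a peak in 5 lists, with percentiles of 17.1 and 3.1 at ZT4, 13.3 and 10.2 at ZT9, and 0.7 at ZT24. PSAH2, a subunit at the docking face for the mobile antenna, had a peak in 8 lists, with percentiles of 11.0 and 2.7 in 2 ZT4 lists, 3.2, 56.6 and 19.7 at ZT9, and 11.98, 36.9 and 6.9 at ZT24. Both genes thus lay near the lower end of most lists that had a peak. At the upper end, PSAL, a subunit next to PSAH, ranked at 92.8, 78.4 and 83.8 in the ZT4 lists, 81.4, 85.4 and 81.9 in those of ZT9, and 77.6, 78.5 and 78.4 at ZT24. In 8 of the lists its leading site (chr4:7519238-7519700) lay 1788 bp upstream and nearest to AT4G12790, and the site over its own start averaged 71.0. PSAF, the docking subunit for plastocyanin, had a start site averaging 70.2, and PSAO, a small subunit, one averaging 68.3. The start sites of the further subunit genes PSAG, PSAK and PSAN averaged 58.1, 39.1 and 44.3.

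RBCS genes all had a peak in all 9 lists. RBCS1A, the most used of the small-subunit genes in leaves, had the highest best peak, at 96.9, 93.4 and 95.4 in the ZT4 lists, 98.6, 98.1 and 95.7 in the ZT9 lists, and 91.1, 84.5 and 85.2 in the ZT24 lists. In 8 lists that peak lay past the end of the gene and nearest to ABA4, while the site over the start of RBCS1A averaged 51.5. RBCS1B, RBCS2B and RBCS3B stand in a row on chromosome 5 and share sites, and the share of unique words was 89.0% in the RBCS1B window. The promoter window of RBCS1B had a peak in each ZT4 list (50.2 ± 18.3) and each ZT9 list (22.9 ± 21.5) and in no ZT24 list.

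**Figure D4:**
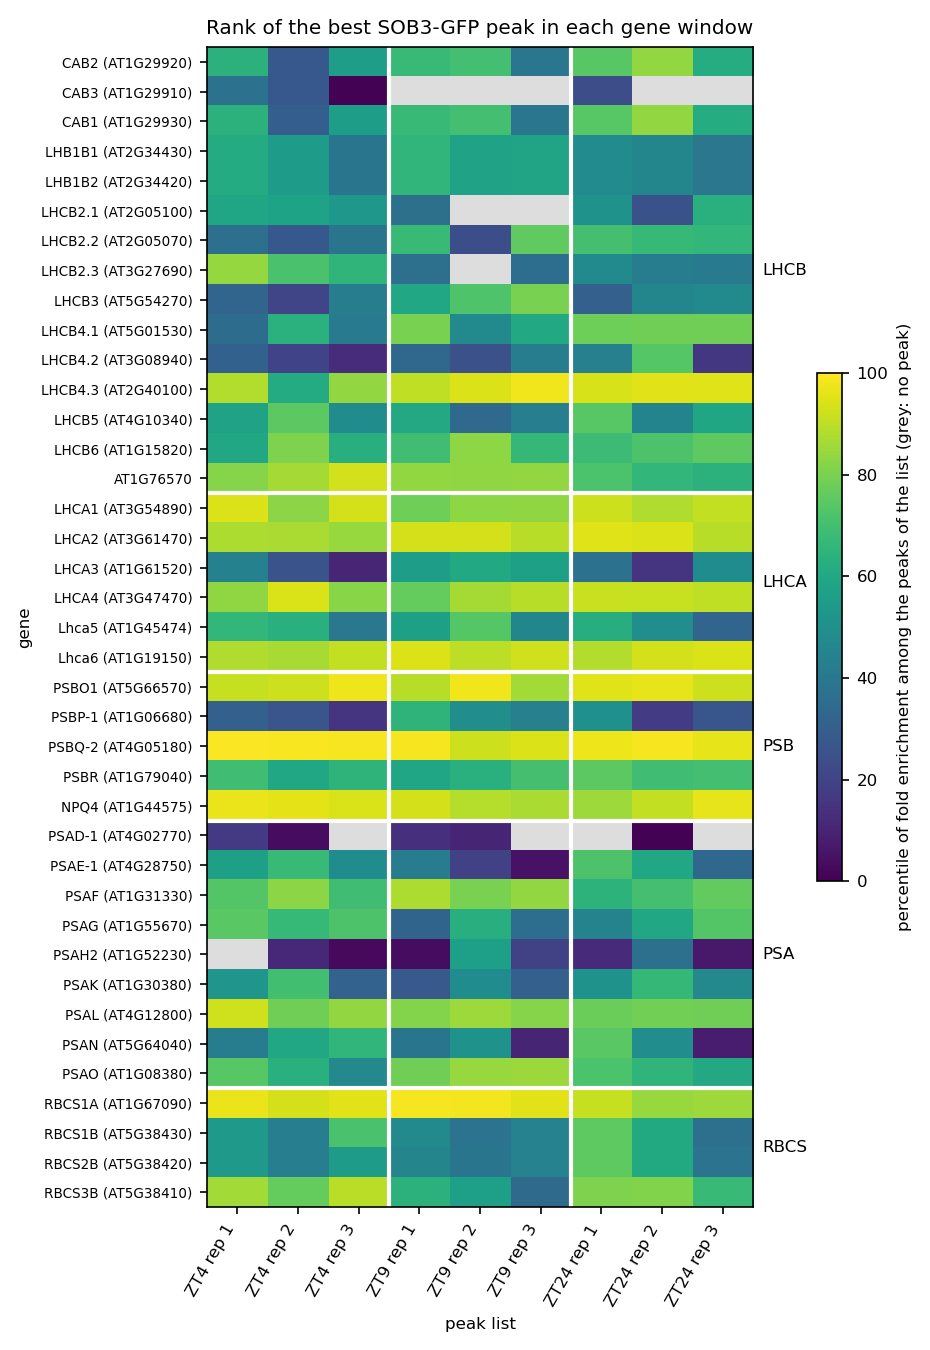
Percentile of the best peak (colour, 0 to 100) of each of the 39 photosynthesis genes (rows, by family) in each of the 9 lists (columns, 3 replicates per time point). Grey means no peak in the window, seen at 5 genes: CAB3, LHCB2.1, LHCB2.3, PSAD-1 and PSAH2. PSBQ-2 is near the top in every column, and PSAD-1 and PSAH2 are mostly dark.

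G-box and I-box words were more frequent at member sites than at sites at large. In 300 bp at the summits of sites of all 9 lists, CACGTG was present at 25.5% of the 51 member sites and 13.4% of all 13251 sites, and GATAAG at 37.3% of member sites and 16.3% of all sites. PIF-like words, a group that includes CACGTG, were present at 51.0% of member sites and 38.7% of all sites, and TCP-like words at 43.1% and 38.0%. AT-rich words were present at 45.1% of member sites and 56.0% of all sites. CACGTG and GATAAG were frequent in these promoters when counted without regard to peaks: in the 250 bases before the TSS CACGTG was found at 20.5% of members and 6.49% of all genes, and GATAAG at 25.6% of members and 12.3% of all genes. PIF-like words were found there at 33.3% of members and 22.0% of all genes, and TCP-like words at 35.9% and 21.5%. AT-rich words were found at 33.3% and 37.9%. All these shares describe the DNA and say nothing of which protein binds it.

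Rank differences between the time points occurred at members at about the share seen over all sites. For each site of all 9 lists the rank of its fold enrichment was compared between ZT4, ZT9 and ZT24 with limma's moderated F test, with p adjusted over all 13251 sites (Benjamini-Hochberg, threshold 0.05). Of the 51 member sites 8 differed (15.7%), against 14.6% of all sites. Between ZT9 and ZT4, 4 member sites differed, 1 higher and 3 lower at ZT9, against 8.32% of all sites. Between ZT24 and ZT4, 1 member site differed and was higher at ZT24, against 5% of all sites. Between ZT24 and ZT9, 5 member sites differed, 2 higher and 3 lower at ZT24, against 8.97% of all sites. Ranked by −log10 p in place of fold enrichment, 0 member sites differed by limma, against 1.8% of all sites, and 12 (23.5%) had an unadjusted p under 0.05, against 22.0% of all sites. Between 2 and 8 member sites differed by fold rank when each list was left out in turn.

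Lower ranks at ZT9 than at ZT4 were seen at RBCS1A, RBCS3B and PSAE-1. The upstream RBCS1A site (chr1:25051116-25051998, summit 1795 bp before the TSS) had percentiles of 85.1, 86.6 and 86.2 in the ZT4 lists, 55.8, 60.4 and 49.5 in those of ZT9, and 78.1, 84.5 and 67.9 at ZT24 (adjusted p = 0.0191). All 3 ZT9 lists lay below all ZT4 and ZT24 lists. The start site of RBCS3B (chr5:15378246-15378863) ranked at 84.1 ± 6.9 (ZT4), 51.7 ± 15.4 (ZT9) and 76.4 ± 7.8 (ZT24) (SD, n = 3 each, limma adjusted p = 0.0313). PSAE-1 encodes a stromal subunit of photosystem I, and its upstream site (chr4:14204880-14206072, summit 1104 bp before the TSS) ranked at 56.7, 67.3 and 48.8 in the ZT4 lists, 30.4, 0.65 and 5.05 in those of ZT9, and 72.1, 59.6 and 33.8 at ZT24 (adjusted p = 0.0255). Here too each ZT9 list lay below every list of the other time points.

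LHCB3 went the other way, with its start site (chr5:22037705-22038475) at 32.5, 21.0 and 41.9 in the ZT4 lists, 59.7, 72.3 and 79.7 in those of ZT9, and 30.8, 45.8 and 47.7 at ZT24 (adjusted p = 0.0300). The 3 ZT9 lists lay above all others. The start sites of LHB1B1 and LHCA1 also ranked highest at ZT9. They passed the contrast of ZT24 with ZT9 (limma adjusted p = 0.0424 and 0.0369) but not the F test (limma adjusted p = 0.05002 and 0.0515). Mean percentiles at ZT4, ZT9 and ZT24 were 41.2, 60.5 and 35.6 for LHB1B1 and 25.7, 48.8 and 14.0 for LHCA1. Of the 8 sites that passed the F test, the remaining 4 were nearest to starts of genes outside the set. A site 2204 bp after the PSBO1 TSS (chr5:26570090-26571133, nearest AT5G66580) ranked at 17.3 ± 1.8 (ZT4), 28.2 ± 6.4 (ZT9) and 56.4 ± 10.5 (ZT24) (SD, n = 3 each, limma adjusted p = 0.0138). A site past LHCB4.3 (chr2:16747093-16748114, nearest AT2G40110) ranked at 64.2 ± 13.2, 54.3 ± 14.0 and 86.3 ± 11.4 at ZT4, ZT9 and ZT24 (limma adjusted p = 0.0386).

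Lower ranks at ZT24 were seen at the other 2 sites. The leading site past RBCS1A (chr1:25046651-25048200, nearest ABA4) ranked at 95.3 ± 1.8 (ZT4), 97.5 ± 1.6 (ZT9) and 86.2 ± 4.5 (ZT24) (SD, n = 3 each, limma adjusted p = 0.0300). A site upstream of AT1G76570, an LHCB7 gene (chr1:28726945-28728450, nearest CP12-3), ranked at 87.1 ± 5.8 (ZT4), 83.7 ± 0.2 (ZT9) and 67.3 ± 3.9 (ZT24) (SD, n = 3 each, limma adjusted p = 0.0465).

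**Figure D5:**
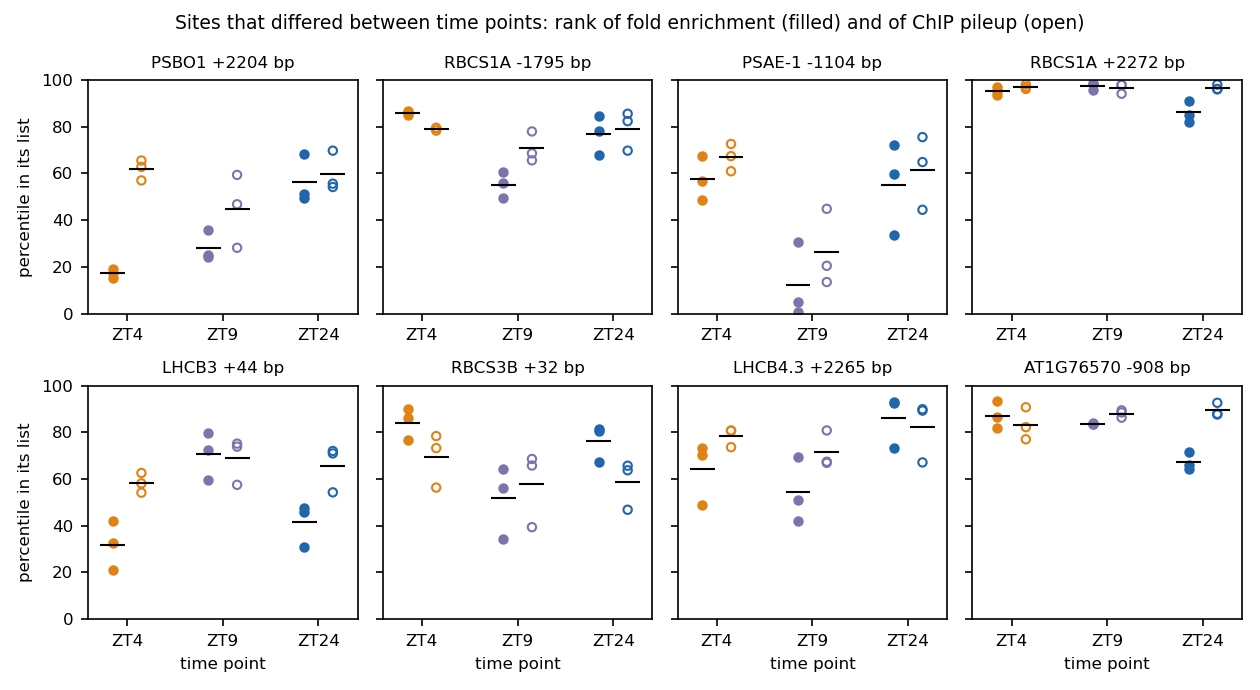
Percentile within its list (y axis, 0 to 100) of the 8 member sites whose rank of fold enrichment differed between time points (x axis), for fold enrichment (filled) and for the ChIP pileup alone (open). Each point is 1 list, lines are means of 3, and the distance in each title is from the TSS of the named gene to the summit. The open points lie closer together across time points than the filled ones at most sites, for example at the RBCS1A site at +2272 bp.

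The background within the fold differed between time points at most sites. Fold enrichment divides the ChIP pileup by a local background, and both were solved from the deposited values. Ranked by pileup alone, 0 of the 51 member sites differed in the limma F test, against 0.226% of all sites, and 10 (19.6%) had an unadjusted p under 0.05, against 13.0% of all sites. Of the 8 sites that passed the F test by fold rank, 1, the upstream PSAE-1 site, had an unadjusted pileup p under 0.05 (limma F test, 0.00565). Its mean pileups were 65.0, 45.0 and 64.3 fragments at ZT4, ZT9 and ZT24. Ranked by background alone, in a fit added after the data were seen, 33 of the 51 member sites differed, against 59.1% of all sites, and 7 of the 8 sites were among them, PSAE-1 being the exception. At the RBCS1A site near ABA4 the mean pileups were 133.7, 126.3 and 132.3 at ZT4, ZT9 and ZT24 and the mean backgrounds 20.9, 18.9 and 27.3. With 1 input per time point, a difference in input and a difference between times of day cannot be told apart in these backgrounds. If the 3 replicates of a time point shared its input, the limma p-values of fold and background rank hold no spread between inputs. By the contrast of ZT24 with ZT9 in pileup rank, 1 member site passed, against 0.204% of all sites: a site past AT1G76570 (chr1:28731200-28732532, nearest AT1G76580) with pileups of 50, 44 and 36 at ZT24 and 58, 58 and 62 at ZT9 (limma adjusted p = 0.0482).

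Other genes of photosynthesis were set beside the members, as a list of 52 genes for further photosystem subunits, electron transport, the Calvin cycle, chlorophyll synthesis, early light-induced proteins and regulators. All 52 had a peak in at least 1 list, against 79.7% of all protein-coding genes, and 38 had one in all 9, against 52.4%. The 4 regulators had the highest median of these lists, 92.6, with peaks in all 9 peak lists each: GLK2 and GPRI1 (GLK1), transcription factors that activate photosynthesis genes, had mean percentiles of 99.4 and 92.2, and the GATA factors GNC and CGA1, which promote greening, had 93.1 and 82.7. Their percentiles lay above the median of 61.7 of the 34 members with a peak in all 9 lists, and above that of 71.1 of all such genes. The leading site of CGA1 lay 2855 bp before its TSS and nearest to the start of BGAL12. The highest and lowest genes of the other lists were PSB27 (99.2, at a site nearest to AT1G03610) and PSBW (15.2, 6 lists) for photosystem subunits, and FED A, a ferredoxin (93.4, nearest to SNRK2.10), and FNR1, a ferredoxin reductase (33.5, 8 lists), for electron transport. For the Calvin cycle they were RCA, Rubisco activase (92.5, at a site nearest to HESO1), and HCEF1, a fructose bisphosphatase (21.8, 7 lists), for chlorophyll synthesis CRD1 (96.8) and POR C, a protochlorophyllide reductase (28.6, 8 lists), and for early light-induced proteins ELIP1 (75.8) and ELIP2 (16.0, 4 lists).

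Of 61 sites at these genes in all 9 lists, 15 (24.6%) differed in fold rank between time points by the limma F test, against 14.6% of all sites. In pileup rank 2 (3.28%) differed, against 0.226%. With replicate number added to the fit as a block, 6 (9.84%) differed in fold rank, against 10.6% of all sites. Ranked by −log10 p, 2 (3.28%) differed, against 1.8%. The 15 lay in the windows of PSAD-2, PSB27 (2 sites), FD1, GAPA-2, FNR2, HEMA1, PSBY, RCA, PSBTN, ELIP1, CRD1, CGA1, FBA2 and GLK2. Some were nearest to the start of another gene: the PSB27 sites to AT1G03590 and AT1G03610, the RCA site to HESO1 and the PSBTN site to RBL. A site past GLK2 was the only one to pass by both fold and pileup rank, with percentiles of fold of 64.3 at ZT4, 29.8 at ZT9 and 74.7 at ZT24 (limma adjusted p = 0.00955 for fold and 0.0452 for pileup). The other pileup call was a site at GUN4, a regulator of chlorophyll synthesis, nearest to GCN2, with percentiles of fold of 64.2, 39.4 and 38.3 at ZT4, ZT9 and ZT24 (limma adjusted p = 0.0636 for fold and 0.0452 for pileup).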

How the data were processed

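The authors mapped single reads of SOB3-GFP ChIP-seq to TAIR10 with Bowtie and called peaks in each replicate separately against input with MACS2. Tool versions are not given in the sources used here, nor is which input served which list. Each of the 9 ChIP samples had a peak list, and no file of the 3 inputs was used. The deposited fold enrichment is a ratio of summit pileup to local background, with the −log10 p and −log10 q of each peak as deposited by the authors. Pileup and background were solved from the deposited fold and −log10 p over whole-number pileups, which fitted 100% of peaks within 0.001. Read totals per sample are unknown.

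Gene windows used the RefSeq annotation of TAIR10.1 (nuclear sequence of TAIR10). Peaks that overlapped by at least 1 bp across lists were merged into 28285 nuclear sites, of which 13251 were in all 9 lists. Within each list the fold enrichment of a site was ranked and turned into normal scores, and ZT4, ZT9 and ZT24 were compared by limma. p-values measure the spread between these samples only. Members and lists were chosen with earlier results of these data known, and the 250 bp limit at starts was chosen after seeing the data. Named were the top member of each family, members with fewer than 9 lists, those whose site differed, and the extremes of the other photosynthesis lists, and some further start sites were named after their values were seen. Alternatives were another threshold on q, window, ranked measure, merging gap, a replicate block and leaving out each list. limma 3.58.1 was run in R 4.3.3 and tested on simulated data, the remainder in Python 3.11.15.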

Additional observations from a re-analysis of the deposited data

Results flagged for a closer look

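The lists also held peaks on organelle DNA, which the comparisons above did not use. The chloroplast sequence held 223 peaks over 8 of the 9 lists, with a median fold enrichment of 1.18 and a highest of 1.92, and the mitochondrial sequence held 73 peaks over 5 lists, with a median of 1.43 and a highest of 1.86. The median over nuclear peaks was 2.76. SOB3 is a nuclear protein. No list from plants without GFP was at hand to set beside these peaks.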

How the results depend on the processing

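The counts of members with peaks kept close to their values under most alternatives. With a −log10 q of at least 10, 14 of the 39 members (35.9%) had a peak in all 9 lists, against 25.6% of all genes. Under the milder limit of 5 this held for 26 members (66.7%), against 40.7%. Under the limit of 10, 26 members were bound at ZT4, 22 at ZT9 and 27 at ZT24. No share of all genes was counted beside these bound counts. They therefore cannot show whether members lost more or less than genes at large, or whether ZT9 differed from the other time points. The median percentile of the best peak was 56.6 in the promoter window only and 58.0 with a −log10 q of at least 5. The summit lay within 100 bp of the TSS at 17 members (43.6%), against 14.8% of all genes, and within 500 bp at 29 (74.4%), against 28.1%.

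Calls between time points depended on the measure. Ranked by −log10 p, 0 member sites and 238 of all sites differed by limma, and 12 member sites (23.5%) had an unadjusted p under 0.05, against 22.0% of all sites. Ranked by pileup, 0 member sites and 30 of all sites differed. With a replicate block 6 member sites and 1400 of all sites differed. The labels do not say whether samples of the same number shared a sowing or harvest. Deviations of same-numbered samples correlated between -0.045 and 0.058 over 9 pairs, and those of different-numbered samples between -0.107 and 0.079 over 18 pairs. Leaving out each list in turn gave between 2 and 8 member sites and between 986 and 1260 of all sites. Member sites called were 5, 6 and 5 without ZT4 replicate 1, 2 and 3, 5, 4 and 2 without ZT9 replicate 1, 2 and 3, and 5, 2 and 8 without ZT24 replicate 1, 2 and 3. Of the 8 sites, the PSBO1 downstream site was called in all 9 of these fits, with adjusted p between 0.0224 and 0.0432, and the AT1G76570 upstream site in 1. Read totals per list are unknown, and the lowest background is only a rough measure of depth. A missing peak therefore cannot be told apart from a shallower list.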
